A study of Mus musculus with 2 samples.

Results

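Fth1 and Ftl1 encode the heavy and light chains of ferritin, and Slc7a11 encodes xCT, the light chain of the cystine and glutamate antiporter. Short fragments of the 3 mRNAs were followed in a nuclear and a cytoplasmic small RNA library of dendritic cells. A sequence was a member when it matched an annotated mouse transcript (GENCODE vM21, GRCm38) of one of the genes along its whole length, sense strand, with no mismatch. Of 538100 distinct sequences of 18 to 39 nt, 795 were members, 363 of Fth1, 222 of Ftl1 and 210 of Slc7a11. The nuclear library held 486 of them, the cytoplasmic library 387, and 78 were in both. The genes were chosen by their nuclear over cytoplasmic level ratios in these same libraries, in exons and introns, so those ratios are a description and no test.

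The nuclear library came from the pellet, and the cytoplasmic library from the supernatant, of dendritic cells grown from C57BL/6 mouse bone marrow. Both came from cells cultured for 7 days with GM-CSF and IL-4, the cytokines that steer marrow precursors towards dendritic cells, and then given lipopolysaccharide (LPS), a component of bacterial outer membranes. There was 1 library of each, with no untreated cells, and no source used here gives the dose or duration of LPS. Each value therefore has no replicate check. Intervals are exact 95% intervals for counting error only, as amplified copies of 1 molecule cannot be recognised. In bulk libraries of this kind, fewer cells holding a transcript and fewer copies per cell cannot be told apart.

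Ferritin is a hollow protein shell that stores iron. The heavy chain oxidises ferrous iron so that it can enter the shell, and the light chain helps the mineral core to form. Both ferritin mRNAs carry an iron response element in the 5′ UTR, a hairpin with a CAGUGN loop that iron regulatory proteins bind when iron is scarce, which blocks translation. xCT imports cystine, the precursor of cysteine for glutathione, in exchange for glutamate. It sits in the membrane with its heavy chain Slc3a2, and its gene is a target of the transcription factors NRF2 and ATF4.

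The libraries were of like depth, with 2000019 nuclear and 2041383 cytoplasmic reads, and levels are in reads per 1000000 reads listed (RPM). Fragments of small nucleolar RNAs, which reside in the nucleus, were 32.3-fold higher in the nuclear library. The nuclear long non-coding RNAs Malat1, Neat1 and Xist were higher there by less, 6.02-fold, 15.2-fold and 5.69-fold. Malat1 had 1798 nuclear and 305 cytoplasmic reads, so the cytoplasmic library also held fragments of nuclear RNA. Mitochondrial tRNA fragments had a nuclear over cytoplasmic ratio of 0.387. Mitochondrial ribosomal RNA was in both, with 1551 nuclear and 1970 cytoplasmic reads of mt-Rnr1, so the nuclear pellet also held mitochondrial RNA. All 14 dendritic and myeloid markers had exon reads, 870 nuclear and 1403 cytoplasmic in sum. Of the defining markers of other cells, 1 of 7 lymphoid genes had exon reads, 1 in each library, and 0 of 6 erythroid genes had any. Of 6 neutrophil granule genes 5 had exon reads, 8 nuclear and 11 cytoplasmic in sum.

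The Fth1 sequences that carry most reads are shown first because they share a start. Coordinates are GRCm38 and Fth1 lies on the plus strand of chromosome 19. Of the 5 exon sequences with most reads, 4 began at nucleotide 571 of the mRNA, in exon 3, within the coding sequence (chr19:9984645-9984670), and the other began at nucleotide 265 in exon 1 (chr19:9982910-9982928).
Fth1 571, 25 nt: tggaactgcacaaactggctactga
Fth1 571, 22 nt: tggaactgcacaaactggctac
Fth1 571, 21 nt: tggaactgcacaaactggcta
Fth1 571, 26 nt: tggaactgcacaaactggctactgac
Fth1 265, 19 nt: accaggacgcggaggctgc

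The 25-nt form had 2 nuclear and 16 cytoplasmic reads, the 22-nt form 3 and 14, the 21-nt form 3 and 13, and the 26-nt form 1 and 14. These 4 forms differ only at the 3′ end, and each was lower in the nuclear library. The sequence at nucleotide 265 had 9 nuclear and 4 cytoplasmic reads, a ratio of 2.30 whose interval, 0.641 to 10.2, included 1.

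The iron response elements are shown because the ferritins are known for them, with 12 nt on each side of the loop and the loop letters in capitals. The Fth1 window lies at nucleotides 87 to 116 of the mRNA (chr19:9982732-9982761, plus strand) and the Ftl1 window at 78 to 107 (chr7:45459778-45459807, minus strand).
Fth1 element: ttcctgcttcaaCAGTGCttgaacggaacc
Ftl1 element: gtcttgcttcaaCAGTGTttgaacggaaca

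The loop letters CAGTGN, read on the mRNA strand only, occur in 3898 of 18470 annotated 5′ UTRs of 30 nt or more (21.1%). With 5 nt on each side that can pair, they occur in 12 (0.0650%), which include both ferritins and Slc40a1, the iron exporter ferroportin. The Slc7a11 5′ UTR also holds the loop letters, but its flanks do not pair. A match is a description of the letters and not a site.

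The Fth1 gene (ENSMUSG00000024661.7, chr19:9980598-9985098) makes an mRNA of 929 nt from 4 exons, with a 5′ UTR of 224 nt, a coding sequence of 546 nt and a 3′ UTR of 159 nt. Its exon fragments had 286 nuclear reads (143 RPM) and 387 cytoplasmic reads (190 RPM), a ratio of 0.754 (0.645 to 0.881). The fragments were lower in the nuclear library on the RPM scale, by less than 2-fold. The direction depends on the scale, since scaling to the miRNA total puts the log2 ratio at 0.49 in place of -0.41.

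The coding sequence carried most Fth1 exon reads, 255 nuclear and 344 cytoplasmic (ratio 0.757, 0.641 to 0.892). The 5′ UTR had 23 nuclear reads (11.5 RPM) and 7 cytoplasmic reads (3.43 RPM), a nuclear level 3.35-fold higher (1.39 to 9.25). The 3′ UTR had 3 nuclear reads and 36 cytoplasmic reads (17.6 RPM), a ratio of 0.0851 (0.0168 to 0.269). The ends of the mRNA thus stood on opposite sides of its coding sequence. The 5′ UTR made up 8.04% of nuclear and 1.81% of cytoplasmic exon reads, with an odds ratio of 4.74 (1.93 to 13.3), and for the 3′ UTR the odds ratio was 0.104 (0.0202 to 0.333). From sequences that match no other gene, the log2 odds ratio of the 5′ UTR was 1.53 in place of 2.24. The interval of that odds ratio was 1.17 to 8.19.

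Along the exons the order was the same. Exon 1 had 94 nuclear and 43 cytoplasmic reads (ratio 2.23, 1.54 to 3.28) and exon 2 had 40 and 30. Exon 3 had 95 nuclear and 208 cytoplasmic reads (0.466, 0.362 to 0.597), and exon 4 had 52 and 106 (0.501, 0.352 to 0.704). The first exon was thus higher and the last 2 exons lower in the nuclear library, with intervals that excluded 1. Of the exon 3 reads, 43 nuclear and 153 cytoplasmic came from starts at nucleotides 561 to 580, described next. The lower ratio of exon 3 therefore rests largely on that stretch.

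A single stretch held many of the cytoplasmic Fth1 reads. Sequences that start at nucleotides 561 to 580, 56 in all, had 43 nuclear and 153 cytoplasmic reads, which is 15.0% of nuclear and 39.5% of cytoplasmic exon reads. At nucleotide 571 alone there were 11 nuclear and 72 cytoplasmic reads (0.156, 0.0745 to 0.296). Outside the stretch the exons had 243 nuclear and 234 cytoplasmic reads, a ratio of 1.06 (0.882 to 1.27) that lay near 1. All 56 sequences also match Gm6977, an Fth1 pseudogene, and reads of the gene and the copy cannot be told apart. Across the exons, the 103 sequences shared with other genes had 66 nuclear and 206 cytoplasmic reads (0.327, 0.244 to 0.433). The 202 sequences of no other annotated gene had 220 nuclear and 181 cytoplasmic reads (1.24, 1.01 to 1.52), so the 2 kinds stood on opposite sides of 1.

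Near the start of the coding sequence, fragments centred at nucleotides 251 to 300 had 70 nuclear and 32 cytoplasmic reads (2.23, 1.45 to 3.51). In the 3′ UTR, starts at nucleotide 802 gave 0 nuclear and 18 cytoplasmic reads, which allows a ratio of at most 0.232. The stretch near the start codon and this 3′ UTR position differed between the libraries in opposite directions.

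**Figure D1:**
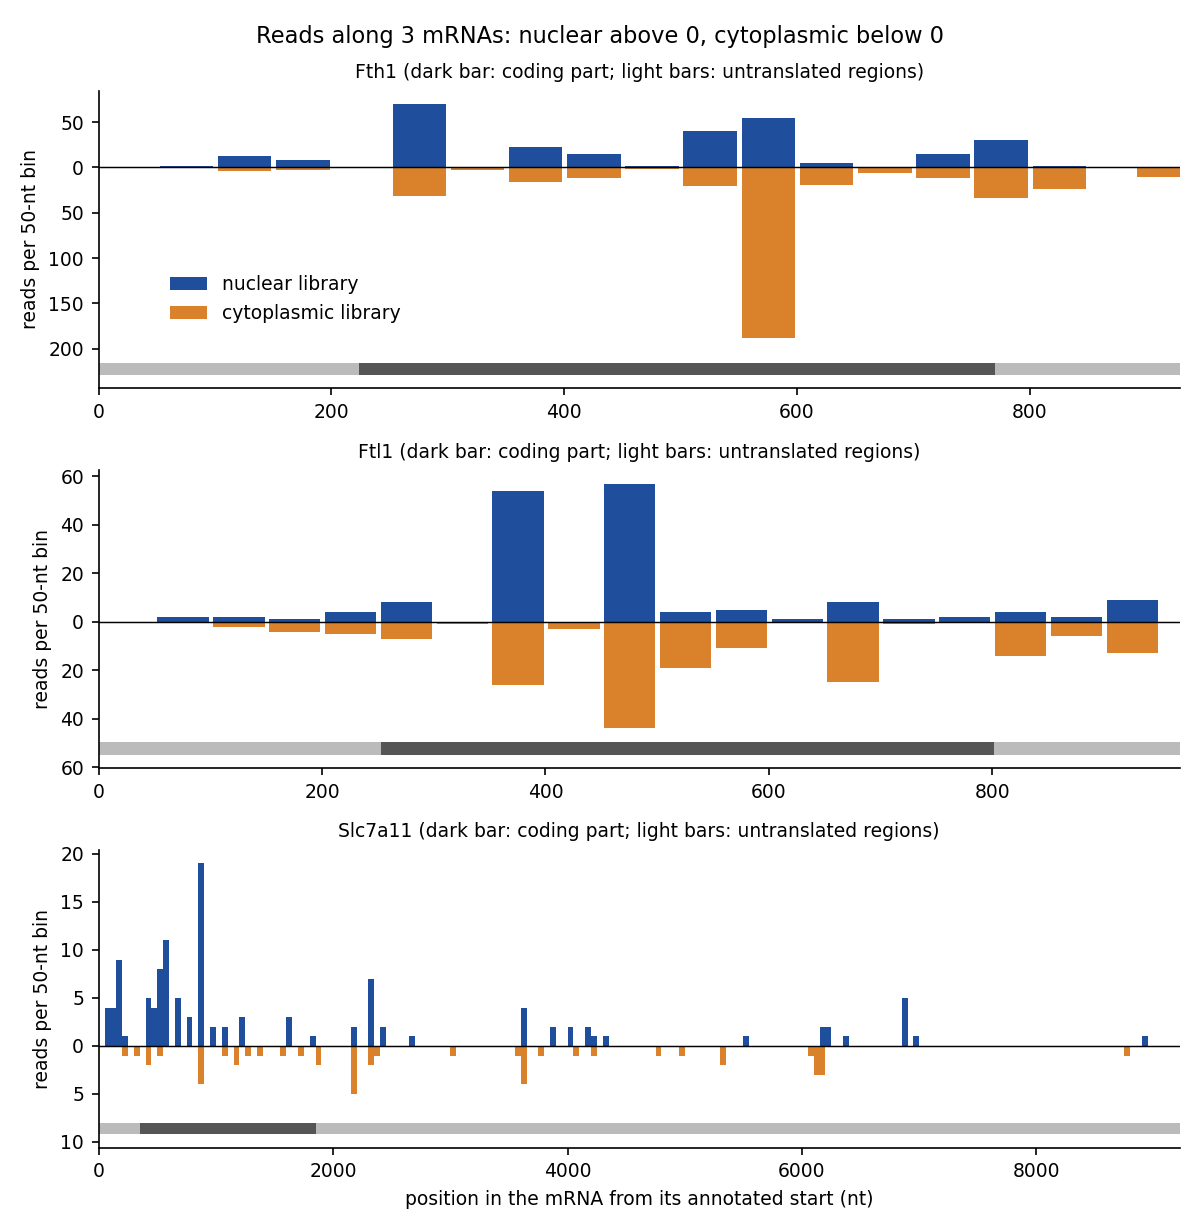
Exon reads along the 3 mRNAs by the midpoint of each fragment, in bins of 50 nt from the 5′ end, with nuclear reads drawn upwards and cytoplasmic reads downwards and the coding part as a dark bar. The longest Fth1 cytoplasmic bar lies at nucleotides 551 to 600, with 55 nuclear and 188 cytoplasmic reads.

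Over the Fth1 iron response element there were 12 sequences with 13 nuclear reads (6.50 RPM) and 4 cytoplasmic reads (1.96 RPM), a ratio of 3.32 (1.02 to 14.0). The 5′ UTR after the element had 10 nuclear and 3 cytoplasmic reads, a ratio of 3.40 (0.876 to 19.2), and the 5′ UTR before it had no sequence of its own. The element and the rest of the 5′ UTR were thus at like ratios. All 5 sequences that cover the whole loop were nuclear, with 8 reads against 0 in the cytoplasmic library. Their starts lay at nucleotides 97 to 99, at the 5′ edge of the loop, and the 3 below, with the loop in capitals, began at nucleotide 98 (chr19:9982743-9982767).
Fth1 98, 25 nt: aCAGTGCttgaacggaacccggtgc
Fth1 98, 24 nt: aCAGTGCttgaacggaacccggtg
Fth1 98, 23 nt: aCAGTGCttgaacggaacccggt

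They had 3, 2 and 1 nuclear reads and 0 cytoplasmic reads each. The 4 cytoplasmic reads began at nucleotides 102 to 104, inside the loop. With counts this small, each start is a single observation in 1 library.

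The Ftl1 gene (ENSMUSG00000050708.16, chr7:45457944-45459884, minus strand) makes an mRNA of 968 nt from 4 exons. Its exon fragments had 168 nuclear reads (84.0 RPM) and 181 cytoplasmic reads (88.7 RPM), a ratio of 0.947 (0.763 to 1.18). On the RPM scale the light chain thus did not differ beyond counting error, and the interval there allows neither library to exceed the other by 1.5-fold. The other scalings gave intervals that excluded 1, in both directions. Factors from the trimmed mean of M-values gave 0.542 to 0.834 and the median of ratios 0.484 to 0.745. On the miRNA scale the interval was 1.42 to 2.18, and the log2 ratio is 0.82 in place of -0.08.

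Ftl1 did not share the 5′ UTR pattern of Fth1. Its 5′ UTR had 9 nuclear reads (4.50 RPM) and 11 cytoplasmic reads (5.39 RPM), a ratio of 0.835 (0.306 to 2.22). As a share this was 5.36% of nuclear and 6.08% of cytoplasmic exon reads, with an odds ratio of 0.875 (0.312 to 2.39). Its log2 odds ratio of -0.19 turned to 0.73 from sequences of at least 2 reads, and both intervals include 1. The difference between the genes in this odds ratio was not tested. The coding sequence had 142 nuclear and 139 cytoplasmic reads (1.04, 0.819 to 1.33). The 3′ UTR had 13 nuclear and 31 cytoplasmic reads, a ratio of 0.428 (0.206 to 0.842), lower in the nuclear library as in Fth1. A single sequence, of 2 nuclear and 0 cytoplasmic reads, overlapped the Ftl1 iron response element.

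Exon 4 of Ftl1 had 26 nuclear and 59 cytoplasmic reads (0.450, 0.272 to 0.725), while exon 1 had 17 and 19 and exon 2 had 111 and 91. Within exon 2, fragments centred at nucleotides 351 to 400 had 54 nuclear and 26 cytoplasmic reads (2.12, 1.30 to 3.53). A pair of neighbouring starts at the junction of exons 2 and 3 are shown because they overlap and are the Ftl1 exon sequences with most reads in one library or the other. Both cross that junction in the mRNA, so in the Ftl1 gene an intron lies between their genomic ends (chr7:45458654-45459094 and chr7:45458659-45459100). They match 10 and 12 annotated genes, Ftl1 among them, so the reads cannot be said to come from spliced Ftl1 mRNA.
Ftl1 492, 18 nt: aggatgtgcagaagccat
Ftl1 486, 19 nt: tcttccaggatgtgcagaa

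The sequence at nucleotide 492 had 0 nuclear and 12 cytoplasmic reads, and all starts there had 0 and 18. The sequence at nucleotide 486 had 7 nuclear reads and 1 cytoplasmic read, while all starts there had 11 and 8. The interval for all starts at 492 ended at 0.232, and that at 486 was 0.514 to 4.02. These 2 positions were picked for their reads in one library or the other, so their ratios are a description and no test. All Ftl1 sequences that cross an exon junction of the mRNA, 31 in number, had 26 nuclear and 42 cytoplasmic reads (0.632, 0.372 to 1.05).

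Ftl1 cannot be separated from its copies. Of its 210 exon sequences, 199 also match other annotated genes, among them the annotated retrogene Ftl1-ps1 with 197, and these had 158 nuclear and 177 cytoplasmic reads. The 11 sequences of no other gene had 10 nuclear and 4 cytoplasmic reads (2.55, 0.736 to 11.1). The near-equal level of Ftl1 in the libraries on the RPM scale is thus that of the gene and its copies together.

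The Slc7a11 gene (ENSMUSG00000027737.10, chr3:49892526-50443614, minus strand) makes an mRNA of 9223 nt from 12 exons, of which 7367 nt are 3′ UTR. Its exon fragments had 121 nuclear reads (60.5 RPM) and 47 cytoplasmic reads (23.0 RPM), 2.63-fold higher in the nuclear library (1.86 to 3.76). A ratio was called when it reached 2-fold, its interval excluded 1 and the entry had at least 50 reads. By that rule Slc7a11 was called higher and neither ferritin was called, 1 of 3 exon entries, where 36.4% of the 516 mRNA exon entries were called higher and 5.62% lower. Under factors from the trimmed mean of M-values (TMM) or the median of ratios, its log2 ratio was 0.89 or 0.73 in place of 1.38, and the call was lost.

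**Figure D2:**
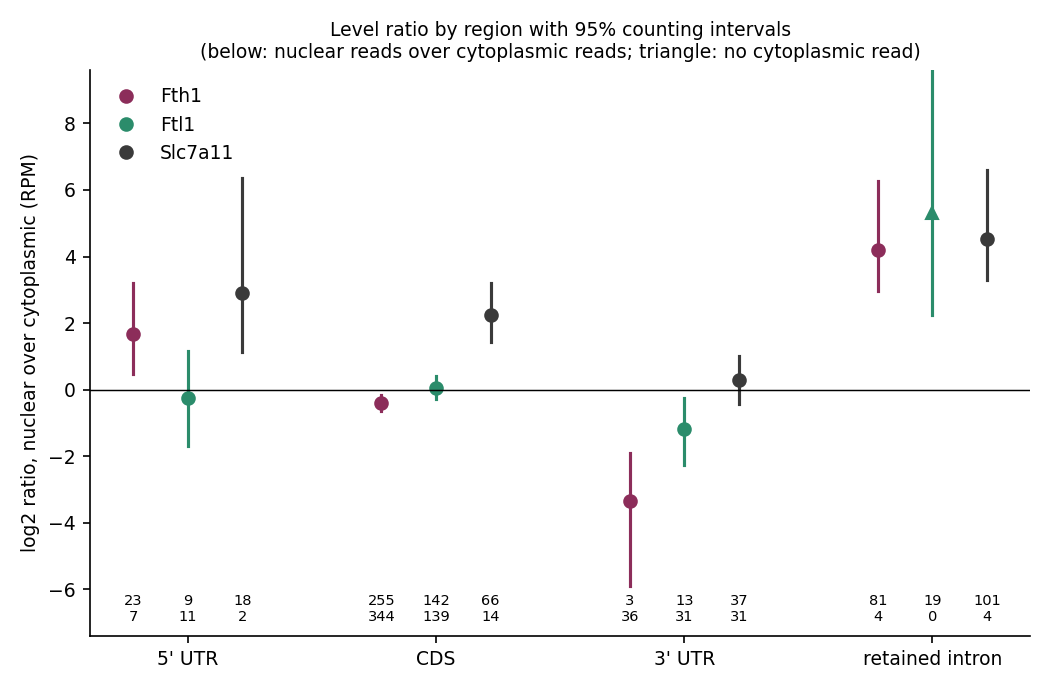
Log2 ratio of nuclear over cytoplasmic RPM, with a pseudocount of 0.5 reads, for the regions of each mRNA and its retained introns. Points give the ratio, lines the exact 95% interval of counting error, and the numbers below them the nuclear and, under these, the cytoplasmic reads. Fth1 lies at 1.68 in the 5′ UTR and at -3.35 in the 3′ UTR, and the Ftl1 introns (triangle, 0 cytoplasmic reads) have an interval with no upper end.

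The Slc7a11 excess lay in the upstream part of the mRNA. Its 5′ UTR had 18 nuclear and 2 cytoplasmic reads (9.19, 2.20 to 81.6), and its coding sequence had 66 and 14 (4.81, 2.68 to 9.28). Its 3′ UTR had 37 nuclear and 31 cytoplasmic reads (1.22, 0.735 to 2.03), so that in these sequences the libraries did not differ there beyond counting error. The 3′ UTR held 30.6% of nuclear and 66.0% of cytoplasmic exon reads, with an odds ratio of 0.230 (0.104 to 0.492). By exon, exon 1 had 46 nuclear and 5 cytoplasmic reads (9.39, 3.75 to 30.3), exon 3 had 22 and 4, and exon 12, which holds the 3′ UTR, had 38 and 31.

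The exon sequence with most nuclear reads lay in exon 3 (chr3:50435349-50435366, minus strand, nucleotide 853 of the mRNA, coding).
Slc7a11 853, 18 nt: tgacagctgtgggcatca

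It had 16 nuclear and 0 cytoplasmic reads, and the interval of its ratio began at 3.94. The rest of the gene's exon sequences were rare: 73 of 107 were read once. A further 18 exon sequences of Slc7a11 matched more than 20 genes and were left out of its ratio as repeat-like. They had 99 nuclear and 0 cytoplasmic reads, of which 11 sequences made only of TG repeats had 88 and 0. Repeat-like sequences of its retained introns, 14 in number, had 42 nuclear and 3 cytoplasmic reads and were left out too.

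**Figure D3:**
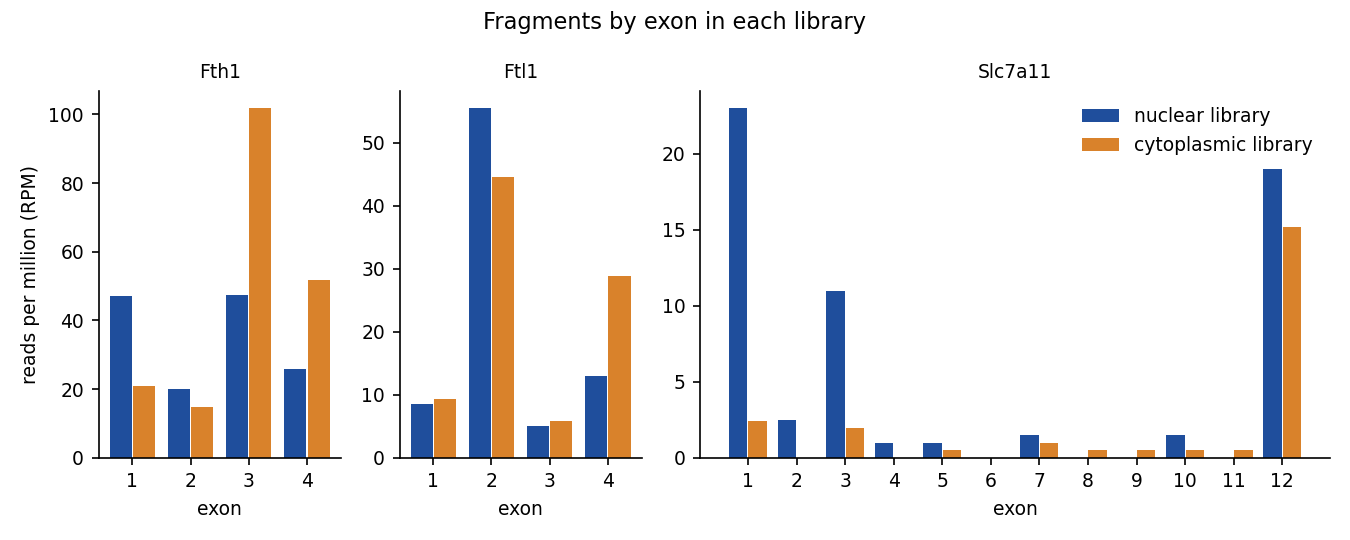
RPM of fragments by exon in the nuclear and the cytoplasmic library, with the 5′ exon at the left of each gene. In Fth1 the nuclear bar is the taller one in exon 1 (47.0 against 21.1 RPM) and the shorter one in exon 3 (47.5 against 102 RPM).

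All 3 genes had more intron fragments in the nuclear library. Introns were counted where an annotated transcript of the gene retains them. Fth1 introns had 81 nuclear reads (40.5 RPM) and 4 cytoplasmic reads (1.96 RPM), a ratio of 20.7 (7.77 to 77.7). Of these, 6 nuclear and 0 cytoplasmic reads matched only a transcript that retains an intron but did not lie mostly in an intron. Ftl1 introns had 19 nuclear reads and 0 cytoplasmic reads. The interval of this ratio began at 4.76, on fewer than the 50 reads an entry needed. Slc7a11 introns had 101 nuclear reads (50.5 RPM) and 4 cytoplasmic reads (1.96 RPM), a ratio of 25.8 (9.76 to 96.4). Both entries with 50 reads were called higher, where 91.7% of the 24 retained intron entries were called higher and 4.17% lower.

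Within each gene, introns took a larger part of the nuclear reads. The share was 22.1% of nuclear and 1.02% of cytoplasmic reads in Fth1, with an odds ratio of 27.3 (10.1 to 104). In Slc7a11 it was 45.5% of nuclear and 7.84% of cytoplasmic reads (odds ratio 9.75, 3.39 to 38.5). In Ftl1 it was 10.2% of nuclear reads and 0 of 181 cytoplasmic reads, where the interval of the share reaches 2.02%, and the interval of the odds ratio began at 4.91. Slc7a11 had the largest and Ftl1 the smallest intron share in the nuclear library. These shares were not corrected for the length of intron and exon that could be matched. That length differs between the genes, with 4069 nt in Slc7a11 intron 1 and 423 nt in Ftl1 intron 2. A gap of this kind was common: of 52 other genes with at least 20 reads in exons and in introns, 49 had the higher ratio in introns. The median gap there was 3.06 on the log2 scale (quartiles 1.74 and 4.96), beside 4.61 for Fth1, 5.39 for Ftl1 and 3.14 for Slc7a11.

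The intron reads that could be matched lay in few introns. An intron that no annotated transcript retains was not searched, so its lack of reads is no result. In Fth1, intron 1 had 44 nuclear and 3 cytoplasmic reads and intron 2 had 30 and 1. In Ftl1, intron 2 had 17 nuclear and 0 cytoplasmic reads and intron 1 had 2 and 0. In Slc7a11, intron 1 had 85 nuclear and 0 cytoplasmic reads, with an interval that began at 23.0, and intron 6 had 16 and 4 (4.08, 1.32 to 16.8). The Fth1 sequence with most intron reads is shown because it starts at the first base of intron 2 (chr19:9984328-9984345, plus strand), whose GT is in capitals. The Slc7a11 one lies in intron 1 (chr3:50441230-50441249, minus strand).
Fth1 intron 2, 18 nt: GTaagtagatcctagggg
Slc7a11 intron 1, 20 nt: actgacttgtatggtgataa

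The Fth1 intron sequence had 4 nuclear reads and 1 cytoplasmic read, and the Slc7a11 one had 5 and 0. No intron sequence of the 3 genes thus had more than 5 reads, and the excess was spread over 58 sequences in Fth1 and 71 in Slc7a11. In Fth1, 69 nuclear and 4 cytoplasmic intron reads overlapped no exon of the gene's other transcripts, and 12 and 0 did. In Ftl1, 9 nuclear and 0 cytoplasmic intron reads overlapped no such exon, and 10 and 0 did. In contrast to the exons, none of the Fth1 and Ftl1 intron sequences matched another annotated gene.

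**Figure D4:**
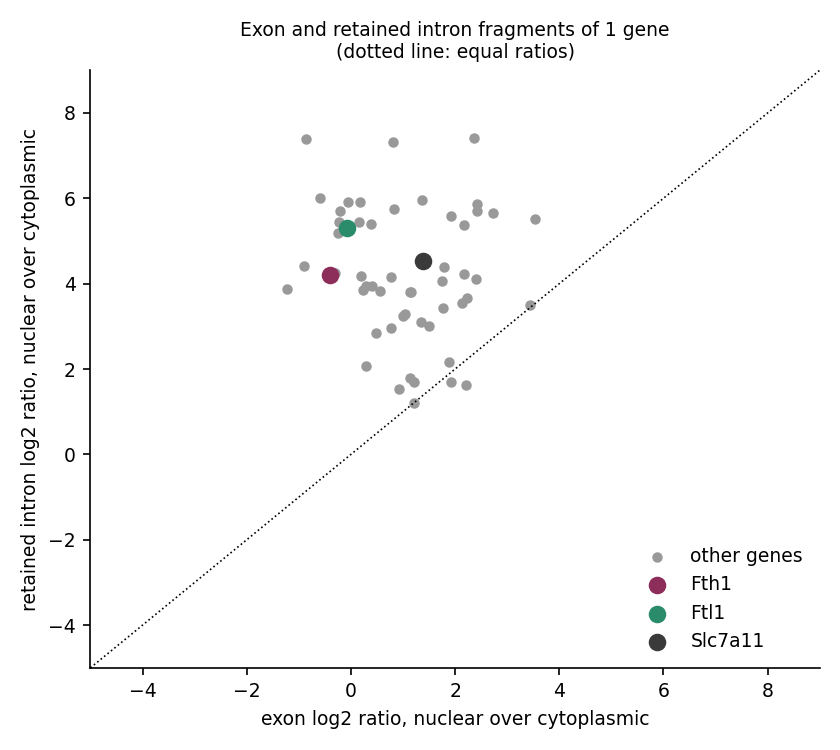
Log2 nuclear over cytoplasmic ratio of exon against retained intron fragments for genes with at least 20 reads in each, with the 3 genes marked and a line where both ratios are equal. Of the 52 other genes, 49 lie on the side where introns have the higher ratio, as do Fth1, Ftl1 and Slc7a11. Ftl1 had 19 intron reads and is drawn beside them.

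Other mRNAs gave the measure for the 5′ and 3′ ends. Pooled over 10354 genes, the 5′ UTR took 11.4% of nuclear and 3.27% of cytoplasmic exon reads, and the ratio was 5.01 in the 5′ UTR, 1.33 in the coding sequence and 1.28 in the 3′ UTR. Taken gene by gene, the 145 genes with enough 5′ UTR reads had a median log2 odds ratio of 2.18. With the sequences it shares with other genes counted, Fth1 stood at 2.21, in the middle of them, while 14.5% of genes lay below Ftl1 at -0.14. In the 3′ UTR 487 genes had a median log2 odds ratio of -0.12, and Fth1 stood at -3.05 with 2.26% of genes below it. Ftl1 at -1.23 had 23.4% and Slc7a11 at -2.10 had 10.3% of genes below.

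The first exon gave the same picture, with odds ratios of 4.01 (2.64 to 6.16) for Fth1, 0.986 (0.462 to 2.09) for Ftl1 and 5.11 (1.84 to 17.8) for Slc7a11. Among 219 other genes 182 had a first exon with an odds ratio above 1, and the median log2 odds ratio was 1.70. In the last exon the odds ratios were 0.602 for Fth1, 0.391 for Ftl1 and 0.239 for Slc7a11, all under 1. Of 567 other genes 328 were below 1 there, with a median log2 odds ratio of -0.31.

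The median fragment length was 22 nt in both libraries for Fth1 exons, and 21 nt in both for Ftl1 and Slc7a11 exons. The first base did differ. An A began 33.2% of nuclear and 44.4% of cytoplasmic Fth1 exon reads, 19.6% and 52.5% of those of Ftl1, and 28.1% and 61.7% of those of Slc7a11. Over all mRNA exon reads the shares were 33.8% in the nuclear and 53.8% in the cytoplasmic library, so the lower A share in the nuclear library was common to mRNA fragments. Nuclear reads covered 63.8% and cytoplasmic reads 66.2% of the Fth1 mRNA, 52.4% and 58.6% of the Ftl1 mRNA, and 9.71% and 7.19% of the much longer Slc7a11 mRNA.

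By total reads, Fth1 was 8th, Ftl1 26th and Slc7a11 65th of the 516 mRNA exon entries, with no correction for length. Ranked from the highest nuclear over cytoplasmic ratio, Slc7a11 was 119th, Ftl1 380th and Fth1 432nd, and the median entry had a log2 ratio of 0.65. Among 53 mRNA exon entries of at least 200 reads, those nearest to Fth1 in log2 ratio over the 2 libraries were Dennd5b, Fn1 and mt-Co1. Those nearest to Ftl1 were Ccl5, D10Wsu102e and Lars2, and those nearest to Slc7a11 were Tgm2, Iqgap1 and Helz2.

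Of 26 listed genes of iron handling 23 had exon reads, 319 nuclear and 274 cytoplasmic in sum, and 4 had the 50 reads needed. Alas1, which starts haem synthesis, had 55 nuclear and 40 cytoplasmic reads, and Hmox1, which degrades haem, had 34 and 38. Lamp2, a lysosomal membrane protein, had 38 nuclear and 29 cytoplasmic reads, and the RNA-binding iron chaperone Pcbp2 had 23 and 40. None of the 4 was called in either direction, where 36.4% of all mRNA exon entries were called higher and 5.62% lower, and their median log2 ratio was 0.14, beside 0.65 over all. Below the 50 reads, Fech, the last enzyme of haem synthesis, had 39 nuclear and 6 cytoplasmic reads (6.63, 2.79 to 19.2). Lcn2, which binds iron-carrying siderophores, had 6 nuclear and 20 cytoplasmic reads (0.306, 0.101 to 0.791). Others of the list below the 50 reads were near equal, among them Fbxl5 with 17 and 14 and Ncoa4 with 9 and 12. Fech and Lcn2 were below the minimum for a call and do not stand for the list.

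Of 30 listed genes of cystine uptake, glutathione and the NRF2 response 27 had exon reads, 590 nuclear and 252 cytoplasmic in sum, and of the 5 with 50 reads 2 were called higher and 0 lower, beside 36.4% and 5.62% of all mRNA exon entries. Atf4, the stress-response transcription factor that acts on Slc7a11, had 66 nuclear and 8 cytoplasmic reads (8.42, 4.03 to 20.3). Prdx1, a peroxide-reducing enzyme, had 111 nuclear and 37 cytoplasmic reads (3.06, 2.09 to 4.57). Txnrd1, which reduces thioredoxin, had 56 nuclear and 34 cytoplasmic reads, the autophagy receptor Sqstm1 had 36 and 24, and Pgd, of the pentose phosphate pathway, had 26 and 31. Their median log2 ratio was 0.74, close to the 0.65 of all mRNA exon entries. Below the 50 reads, the xCT heavy chain Slc3a2 had 42 nuclear and 7 cytoplasmic reads, and the glutamate-cysteine ligase subunits Gclm and Gclc had 20 and 4 and 18 and 4. Srxn1 had 29 nuclear and 4 cytoplasmic reads, Gpx1 32 and 8 and Keap1 14 and 3. The intervals of these 6 genes lay above 1. Others of the list below the 50 reads were near equal, among them Acsl4 with 17 and 15, Gsr with 11 and 10 and Txn1 with 4 and 4. None below the 50 reads had an interval wholly below 1. All of these were below the minimum for a call, and the list as a whole was not tested.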

How the data were processed

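Small RNA was sequenced from 1 nuclear and 1 cytoplasmic library. The authors' deposited table gives, for each distinct sequence, its level in RPM, that is, reads per 1000000 reads. The submitters' processing notes name CASAVA and the build mm10. No source used here gives the adapter trimming, length limits or filters. The columns were taken as nuclear or cytoplasmic by the last letter of their names.

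In both columns 100% of values were whole multiples of 1 read within 0.1 read, and reads were recovered from this. Sequences were matched to GENCODE vM21 transcripts with Python 3.11.15. Only introns retained in an annotated transcript could be matched. Sequences in more than 20 genes were left out as repeat-like, a limit chosen after the data were seen. An exon read belonged to the region or exon that held most of it. Intron reads were those that matched only transcripts annotated as retaining an intron. The ratio is nuclear over cytoplasmic RPM, and the log2 ratio adds a pseudocount of 0.5 reads. Intervals for ratios, shares (Clopper-Pearson) and odds ratios are exact at 95%. With 1 library in each group no count model could be fitted and no p-value is given. The TMM factors are from edgeR 4.0.16. Ratios and calls were also run on simulated reads that held counting error only. That run cannot tell how they fare with variation between libraries or amplified copies.

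The named sequences are the 5 with most reads of each gene part, the highest in each library, and those over the iron response element. The genes, lists and rules were chosen with earlier results of these data known. Other exon starts and stretches were chosen after their values were seen.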

Additional observations from a re-analysis of the deposited data

Results flagged for a closer look

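Reads antisense to Fth1 appeared in sequences that no comparison used. There were 26 nuclear and 0 cytoplasmic reads over 16 sequences, and none of these matches an annotated transcript on the sense strand. Of the 26 reads, 20 lay 165 to 2015 nt upstream of the start of the Fth1 mRNA (chr19:9980631-9982481), where an annotated longer Fth1 transcript extends, and 6 lay inside the mRNA's span. The origin of these reads was not tested.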

How the results depend on the processing

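Every log2 ratio moves by -0.49 under TMM factors, by -0.66 under the median of ratios and by 0.89 under scaling to the miRNA total. The Fth1 exon log2 ratio (-0.41 as reported) became -0.90, -1.06 (then called lower) and 0.49 under these scalings. It was -2.69 (called lower) from the most abundant sequence alone, 0.31 from sequences of no other gene and 0.084 without starts at 561 to 580. The Ftl1 exon log2 ratio (-0.08) became -0.57, -0.74 and 0.82 under the same scalings. It was -4.61 (called lower) from the most abundant sequence alone, 1.25 from sequences of no other gene and 0.32 from sequences of at least 2 reads. The Slc7a11 exon log2 ratio (1.38) became 0.89 and 0.73 (no longer called) and 2.28. It was 5.07 from the most abundant sequence alone, 3.22 from sequences of at least 2 reads and 2.24 with repeat-like sequences kept. The Fth1 retained intron log2 ratio (4.21) was 1.61 from the most abundant sequence alone, and that of Slc7a11 (4.52) was 6.85 from sequences of at least 2 reads. From the most abundant sequence alone no retained intron was called, with 3.49 for Slc7a11 and 2.84 for Ftl1. The log2 odds ratio of the Fth1 5′ UTR share (2.24) ranged over 1.53 to 3.37 and that of Ftl1 (-0.19) over -1.48 to 0.73 in the 4 alternatives run for each. Of 938 entries 390 were called higher, and 591 on the miRNA scale, 1065 of 2495 with a minimum of 20 reads and 2499 of 17275 with none. Called lower were 100, and 209 under TMM, 253 under the median of ratios, 25 on the miRNA scale, 155 with a minimum of 20 reads and 208 with none. Repeat-like sequences kept, the limit of 10 genes, matches after 3′ removal and the omission of these starts were chosen after seeing the data. No paired analysis was possible because each group has 1 library. Most exon sequences had 1 read, so depth limits single positions and the iron response element.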
